A study of Mustela putorius furo with 2 samples.

Results

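ENPP6, ABCA9, EGFLAM, RASGRP3 and KLK6 are 5 of the 28156 features in single-nucleus count tables from ferret somatosensory cortex (14296 features carry a symbol). They were picked because they led a group of oligodendrocyte nuclei that was more common in the deeper of 2 cortical bands. Their height in that group, and the band in which the group was larger, are therefore how they were chosen, and every value below is a description with no test. All 5 were found by symbol in both tables, as ENPP6 (ENSMPUG00000011072), ABCA9 (ENSMPUG00000014349), EGFLAM (ENSMPUG00000014860), RASGRP3 (ENSMPUG00000010106) and KLK6 (ENSMPUG00000001562).

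The study profiled nuclei of Mustela putorius furo animals labelled DCX knockout, a model of smooth-brain malformation. DCX encodes a microtubule-binding protein of migrating neurons, and the series text calls the same animals a knockdown. The libraries came from tissue labelled upper band and deeper band of the cortex, with 1 library for each, and wild-type tissue was not analysed here. Age, sex, the number of animals and any pooling are not given in the sources used here.

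Oligodendrocytes wrap axons in myelin, a lipid-rich membrane, and pass from precursors through a newly formed stage to mature cells that differ among themselves. ENPP6 is a cell-surface enzyme that cleaves glycerophosphocholine, and in rodents its transcript is used as a marker of newly formed oligodendrocytes. ABCA9 belongs to a family of membrane transporters that move lipids. RASGRP3 is an exchange factor that loads RAS and RAP proteins with GTP and responds to diacylglycerol. EGFLAM encodes pikachurin, a secreted ligand of dystroglycan known from photoreceptor synapses. KLK6 encodes a secreted serine protease of the kallikrein family that mature oligodendrocytes make and that can cleave myelin basic protein.

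After filtering, the upper-band library held 6261 nuclei with a median of 7992 unique molecular identifiers (UMIs) and the deeper-band library 8150 nuclei with a median of 4887.5. DCX itself was detected at 78.5 and 77.2 CPM in upper-band and deeper-band nuclei, where CPM are UMIs per 1000000 UMIs of the same nuclei. With no control library this level does not check the genotype label. The libraries shared 24 barcodes. With 1 library a band, band cannot be told apart from animal or library preparation, and all intervals are 95% intervals that cover counting error only.

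Of 27 clusters of nuclei, 3 were called oligodendrocyte-like. In the cluster that carried the 5 genes, here called ENPP6-led, the 10 leading genes were ABCA9, RASGRP3, ENPP6, ANLN, GASK1A, PDK4, KLK6, MOBP, SLC5A11 and RNF220. All 13 oligodendrocyte markers present in the files were raised in it. The other 2 clusters were led by MOBP, a myelin protein gene, and by TF, the transferrin gene. The summed level of the 13 markers, which leave out all 5 genes, was 16813 CPM in the upper and 16977 CPM in the deeper band in the ENPP6-led cluster. It was 15425 and 16382 CPM in the MOBP-led cluster and 14055 and 15957 CPM in the TF-led cluster. So the nuclei that carried the 5 genes held as much myelin transcript as the other oligodendrocyte-like nuclei.

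The ENPP6-led cluster held 73 of 6261 nuclei in the upper band, or 1.17% (exact binomial interval 0.915% to 1.46%). In the deeper band it held 450 of 8150, or 5.52% (5.04% to 6.04%) (log2 ratio 2.24, 1.89 to 2.60). These shares depended on the clustering: they were 3.4% and 10.2% with a minimum of 1000 genes a nucleus (log2 ratio 1.58) and 3.04% and 10.7% after thinning each nucleus to 1500 UMIs (1.81). The MOBP-led cluster took 10.4% and 14.7% of nuclei and the TF-led cluster 3.26% and 10.7%. Among oligodendrocyte-like nuclei alone, the ENPP6-led share was 7.88% of 926 in the upper and 17.8% of 2524 in the deeper band. The TF-led share was also higher in the deeper band, at 34.5% against 22.0%, and the MOBP-led share was lower, at 47.6% against 70.1%.

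ENPP6, the choline phosphodiesterase, had 286 CPM (57 UMIs, Poisson interval 217 to 371) in the upper-band nuclei of the ENPP6-led cluster. Its deeper-band nuclei had 287 CPM (308 UMIs, 256 to 321). The log2 ratio of deeper over upper was 0.00 (-0.41 to 0.44), so no band difference was detectable in these nuclei. With a minimum of 1000 genes a nucleus the cluster was larger (202 and 758 nuclei), and ENPP6 had 148 CPM in the upper and 206 CPM in the deeper band (log2 ratio 0.47, 0.12 to 0.85). In the MOBP-led cluster the level was 24.3 and 31.1 CPM, and in the TF-led cluster 6.09 CPM from 2 UMIs and 14.6 CPM from 20 UMIs. Over all 3 clusters ENPP6 stood at 44.7 CPM in the upper and 79.2 CPM in the deeper band (log2 ratio 0.83, 0.51 to 1.15). With the minimum of 500 genes used for the other values, the interval held 0 in each of the 3 clusters and lay above 0 in their sum.

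ABCA9, the lipid transporter family member, followed the same course. It had 422 CPM (84 UMIs) in the upper and 450.3 CPM (483 UMIs) in the deeper band of the ENPP6-led cluster (log2 ratio 0.09, -0.24 to 0.44), and 245 and 321 CPM in the larger cluster (0.39, 0.11 to 0.67). Over the 3 clusters it was at 70.4 and 134 CPM (log2 ratio 0.93, 0.68 to 1.19). The TF-led cluster was the exception, with 3 UMIs (9.13 CPM) in the upper and 72 UMIs (52.6 CPM) in the deeper band (log2 ratio 2.53, 0.92 to 4.84).

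RASGRP3, the RAS and RAP exchange factor, had 538 CPM (107 UMIs) in the upper and 630.2 CPM (676 UMIs) in the deeper band of the ENPP6-led cluster (log2 ratio 0.23, -0.07 to 0.54), and 321 and 433 CPM in the larger cluster (0.43, 0.19 to 0.68). The MOBP-led cluster had 103 and 93.0 CPM (-0.15, -0.43 to 0.13) and the TF-led cluster 21.3 CPM from 7 UMIs and 47.5 CPM from 65 UMIs (1.16, 0.03 to 2.53). Over the 3 clusters the levels were 129.7 and 191 CPM (log2 ratio 0.56, 0.37 to 0.75).

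EGFLAM, the dystroglycan ligand, was the sparsest of the 5. It had 15 UMIs (75.4 CPM, 42.2 to 124) in the upper and 99 UMIs (92.3 CPM, 75.0 to 112) in the deeper band of the ENPP6-led cluster (log2 ratio 0.29, -0.50 to 1.18). The MOBP-led cluster held 7 and 6 UMIs and the TF-led cluster 1 and 1. In the upper band 35 of its 50 UMIs lay outside the ENPP6-led cluster, 10 of them (9.34 CPM) in nuclei with oligodendrocyte markers and immune leading genes and 7 in excitatory neurons. In astrocytes and in oligodendrocyte precursors it had 0 UMIs, which allows up to 2.49 and 1.51 CPM in upper-band and deeper-band astrocytes and up to 8.14 and 6.31 CPM in precursors.

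KLK6, the secreted protease, was higher in the deeper band in each of the 3 clusters. In the ENPP6-led cluster it had 196 CPM (39 UMIs) in the upper and 326 CPM (350 UMIs) in the deeper band (log2 ratio 0.74, 0.26 to 1.25). In the MOBP-led cluster it had 59.5 and 127 CPM (log2 ratio 1.09, 0.77 to 1.42), and in the TF-led cluster 30.4 and 144 CPM (log2 ratio 2.24, 1.33 to 3.32). Over all 3 it stood at 67.3 and 172 CPM (log2 ratio 1.35, 1.10 to 1.61). No interval in these clusters reached 0, which was true of none of the other 4 genes.

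**Figure D1:**
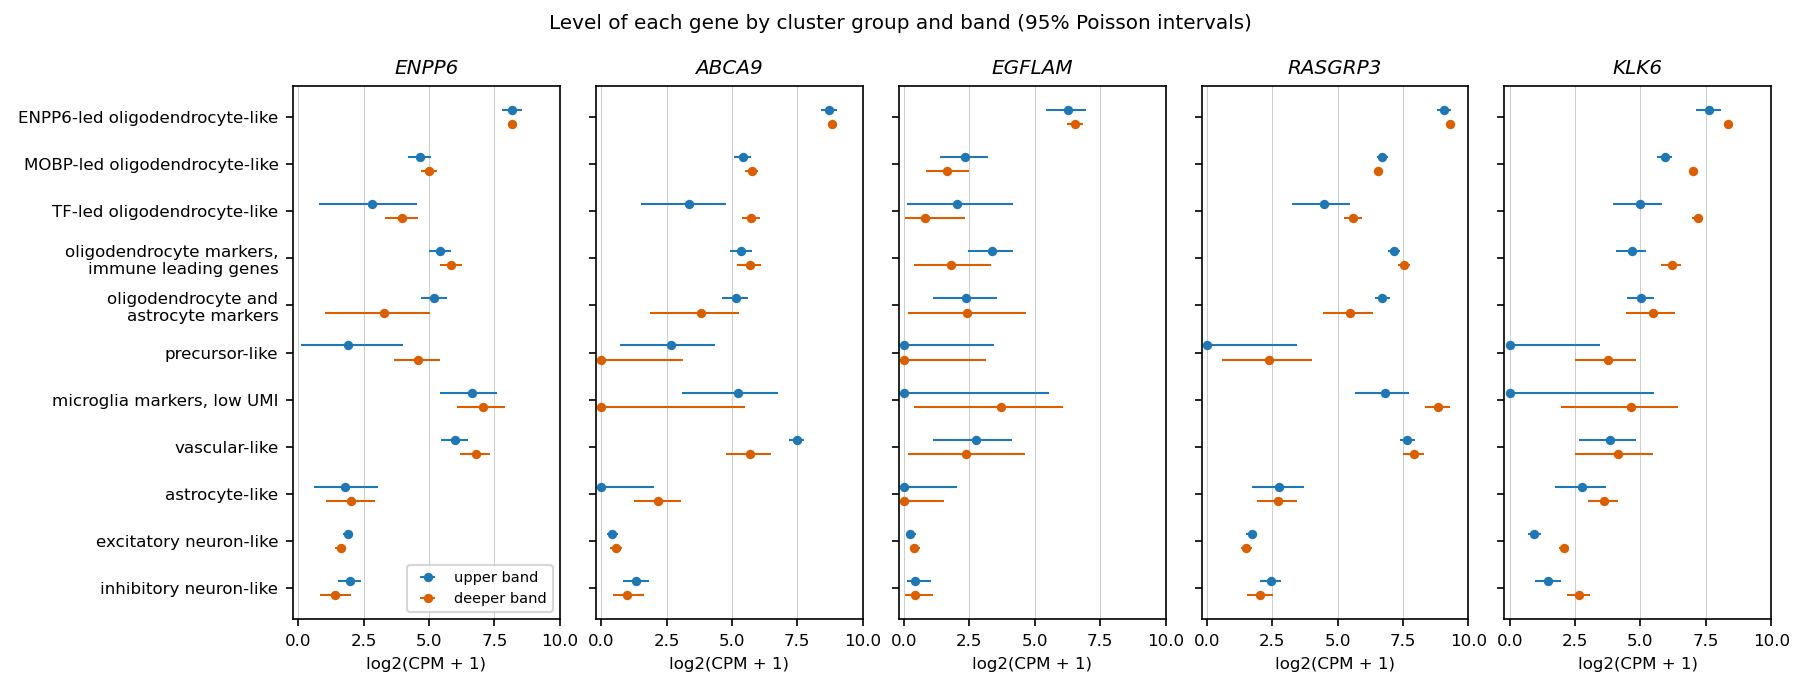
Level of each of the 5 genes, as log2(CPM + 1) on the x axis, in 11 groups of nuclei of the upper band (blue) and deeper band (orange), with points for summed UMIs and bars for 95% Poisson intervals. All 5 genes have their highest oligodendrocyte-like level in the ENPP6-led cluster (EGFLAM 75.4 and 92.3 CPM), and KLK6 is shifted to the right in the deeper band in each oligodendrocyte-like cluster and in the neurons.

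The share of the band ratio that went with the cluster mix was computed by giving both bands the same mix of the 3 clusters while keeping each band's own levels. In the upper band 8.81% of oligodendrocyte-like UMIs came from the ENPP6-led cluster, against 20.5% in the deeper band. At the upper band's mix the log2 ratio of ENPP6 was 0.20 where 0.83 had been observed. That of ABCA9 was 0.32 against 0.93, that of EGFLAM -0.04 against 0.99 and that of RASGRP3 0.04 against 0.56. KLK6 kept 1.12 of 1.35. At the deeper band's mix the values were 0.11, 0.27, 0.14, 0.16 and 1.11 in the same order of genes. The 5 genes helped to form these clusters, so small ratios at an equal mix are in part built in, and they are given as a description. In the clusters formed without the 5 genes, the values at the upper band's mix were 0.26 for ENPP6, 0.34 for ABCA9, 0.03 for EGFLAM, 0.02 for RASGRP3 and 1.15 for KLK6. With a minimum of 1000 genes they were 0.34, 0.48, 0.43, 0.24 and 1.20.

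**Figure D2:**
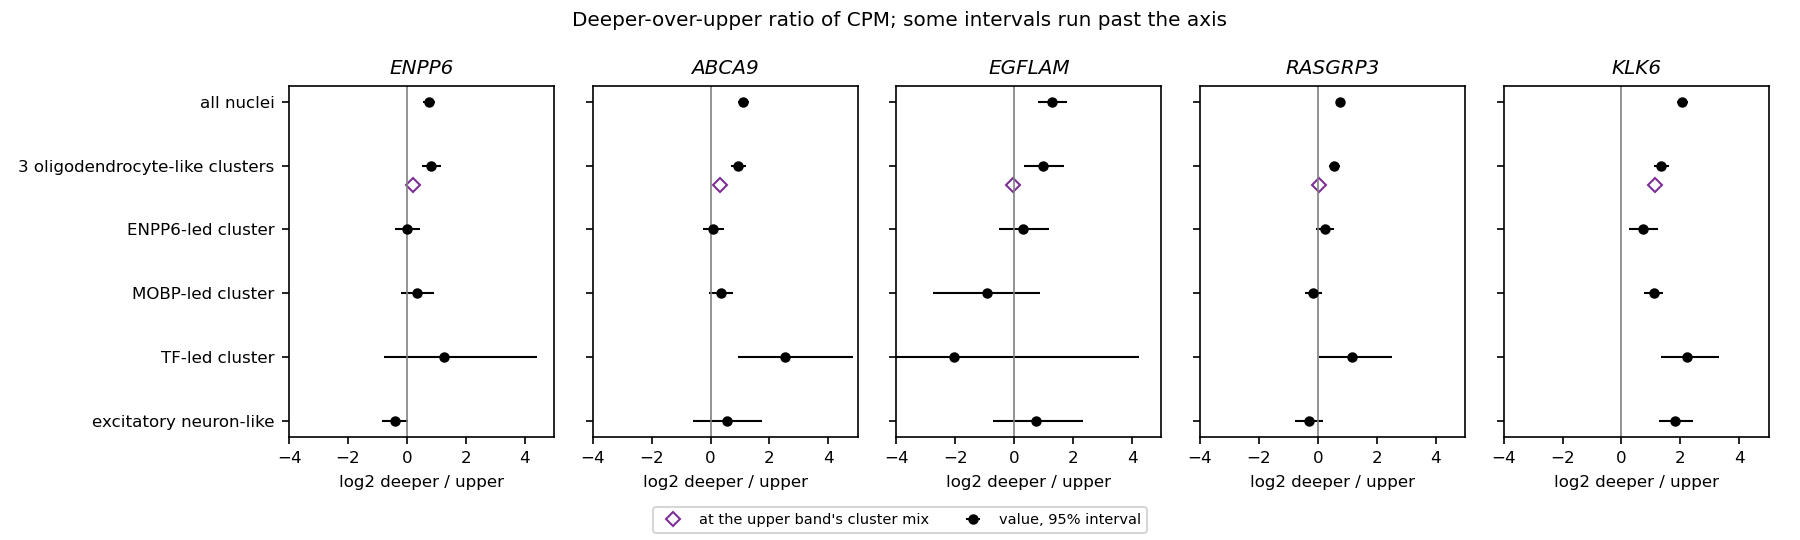
Log2 ratio of CPM, deeper over upper band, of each gene in 6 sets of nuclei, with points for the value, bars for 95% intervals and open diamonds for the ratio of the 3 clusters at the upper band's cluster mix. The diamonds of ENPP6 (0.20), EGFLAM (-0.04) and RASGRP3 (0.04) sit near 0 and that of KLK6 at 1.12.

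The ratios were set beside those of all genes with at least 50 UMIs over both bands. In the 3 clusters, 75 of 9298 genes, or 0.807%, were at least 2-fold higher in the deeper band, and KLK6 was the only 1 of the 5 among them. The median log2 ratio over all 9298 genes was 0.01, with 5% of genes below -0.49 and 5% above 0.59. ENPP6, ABCA9 and EGFLAM lay above that range and RASGRP3 inside it. Without the ENPP6-led cluster, 0.616% of 8771 genes passed, again with KLK6, which had 54.9 CPM in the upper and 132 CPM in the deeper band (log2 ratio 1.27, 0.98 to 1.57). In the ENPP6-led cluster alone 3.39% of genes passed and none of the 5. In the MOBP-led cluster 0.431% passed, KLK6 among them, while 0.456% were at least 2-fold lower and none of the 5 was, and in the TF-led cluster 2.5%, where ABCA9, KLK6 and RASGRP3 did.

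Over all nuclei of each library, 3 of the 5 were at least 2-fold higher in the deeper band, where 0.811% of 16900 genes were. KLK6 had 5.18 CPM in the upper and 21.7 CPM in the deeper band (log2 ratio 2.07, 1.87 to 2.26), EGFLAM 0.955 and 2.34 CPM (1.29, 0.81 to 1.80) and ABCA9 6.86 and 14.8 CPM (1.11, 0.93 to 1.29). ENPP6 had 6.72 and 11.3 CPM (0.75, 0.56 to 0.95) and RASGRP3 15.1 and 25.4 CPM (0.75, 0.62 to 0.88). Oligodendrocyte-like nuclei were 14.8% of the upper-band and 31.0% of the deeper-band nuclei.

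The clusters' contributions differed between the libraries. The ENPP6-led cluster held 0.380% of all UMIs in the upper band but 16.2% of the ENPP6 UMIs, 23.4% of ABCA9, 30.0% of EGFLAM, 13.5% of RASGRP3 and 14.4% of KLK6. In the deeper band it held 2.01% of all UMIs and 50.9%, 61.2%, 79.2%, 49.9% and 30.3% of the same genes. KLK6 had the smallest deeper-band share in the ENPP6-led cluster, but 77.9% of its deeper-band UMIs lay in the 3 oligodendrocyte-like clusters together. That share was 68.6% for ENPP6, 73.8% for RASGRP3, 84.8% for EGFLAM and 89.1% for ABCA9.

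In the sum of all nuclei outside the 3 oligodendrocyte-like clusters the direction parted. ENPP6 was lower in the deeper band, at 3.95 against 5.01 CPM (log2 ratio -0.34, -0.62 to -0.07), as were ABCA9 at 1.79 against 3.99 CPM (-1.16, -1.54 to -0.79) and RASGRP3 at 7.38 against 9.94 CPM (-0.43, -0.63 to -0.23). KLK6 was higher, at 5.32 against 2.38 CPM (1.16, 0.84 to 1.49). EGFLAM had 27 and 19 UMIs, too few to give a direction. The mix of these nuclei differed between the bands. An unnamed cluster with oligodendrocyte and astrocyte markers held 150 upper-band and 48 deeper-band nuclei, and its UMIs numbered 34 and 2 for ENPP6, 33 and 3 for ABCA9 and 99 and 10 for RASGRP3. In the nuclei with oligodendrocyte markers and immune leading genes (157 and 136) the log2 ratios were 0.43 (-0.20 to 1.06) for ENPP6, 0.33 (-0.33 to 0.98) for ABCA9, 0.37 (0.04 to 0.71) for RASGRP3 and 1.56 (0.87 to 2.29) for KLK6. Over all nuclei outside the 3 oligodendrocyte-like clusters, 0.653% of 16692 genes were at least 2-fold higher in the deeper band. KLK6 was the only 1 of the 5 among them. In that same sum 1.85% of genes were at least 2-fold lower, ABCA9 among them.

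KLK6 in neurons showed the same sign as in oligodendrocyte-like nuclei. Excitatory neurons had 34 UMIs (0.911 CPM) in the upper and 123 UMIs (3.22 CPM) in the deeper band (log2 ratio 1.82, 1.26 to 2.41), and inhibitory neurons 15 and 32 UMIs (1.58, 0.65 to 2.57). The level in neurons was far below that in the oligodendrocyte-like clusters. Summed oligodendrocyte markers in the same excitatory nuclei were 112 CPM in the upper and 97.8 CPM in the deeper band. Per 1000 oligodendrocyte marker UMIs, KLK6 had 8.15 UMIs in upper-band and 32.9 in deeper-band excitatory neurons, against 4.38 and 10.5 in the oligodendrocyte-like clusters. The mix of excitatory clusters also differed between the bands. The cluster led by FOXP2 held 8.67% of upper-band and 1.48% of deeper-band nuclei, and that led by SYNPO2 and PAPSS2 held 2.68% and 11.3%. The parts of this mix and of free RNA in the droplets in these neuronal counts were not tested further.

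ENPP6 in excitatory neurons, by contrast, had 102 UMIs (2.73 CPM) in the upper and 79 UMIs (2.07 CPM) in the deeper band (log2 ratio -0.40, -0.84 to 0.04). That made 24.5 and 21.2 UMIs per 1000 oligodendrocyte marker UMIs, against 2.91 and 4.83 in the oligodendrocyte-like clusters. The ratio to the markers was thus higher in excitatory neurons than in the 3 oligodendrocyte-like clusters together. The gap was much smaller for the ENPP6-led cluster alone. It had 57 ENPP6 UMIs beside 3345 marker UMIs in the upper and 308 beside 18211 in the deeper band. Excitatory neurons had 102 beside 4170 and 79 beside 3734.

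Vascular-like nuclei carried ABCA9, ENPP6 and RASGRP3 as well. ABCA9 had 94 UMIs (178 CPM) in the upper and 12 UMIs (50.6 CPM) in the deeper band there (log2 ratio -1.81, -2.81 to -0.94). In the same nuclei the fibroblast gene DCN had 240.0 and 105 CPM, COL1A2 79.4 and 33.7 CPM, and LUM 47.2 and 25.3 CPM, while FLT1, an endothelial receptor, had 1001 and 1679 CPM. The myelin transcript MBP was also higher in the upper band, at 423 and 122 CPM. The part of each in the ABCA9 counts was not tested. RASGRP3 had 202 and 240.4 CPM in these nuclei and ENPP6 62.4 and 109.7 CPM. In a small cluster with microglia markers, low UMI counts and no name, RASGRP3 had 9 UMIs (110.0 CPM) in the upper and 38 UMIs (455 CPM) in the deeper band (log2 ratio 2.05, 0.98 to 3.28). EGFLAM and KLK6 were sparse in both kinds of nuclei, with 3 and 1 UMIs of EGFLAM and 7 and 4 UMIs of KLK6 in the vascular-like ones.

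The ENPP6-led cluster was next compared with the other 2 oligodendrocyte-like clusters within each band, which is the contrast the 5 genes were picked on. ENPP6 was higher by 3.75 in log2 units (3.15 to 4.35) in the upper and 3.48 (3.16 to 3.81) in the deeper band. ABCA9 was higher by 3.54 and 3.09, RASGRP3 by 2.57 and 3.01, and KLK6 by 1.84 and 1.3. EGFLAM was higher by 5.78 (4.68 to 7.13) in the deeper band and, from 23 UMIs in all, by 4.28 (2.95 to 5.72) in the upper. In the upper band 3.19% of 5996 genes were at least 2-fold higher in the ENPP6-led cluster, and in the deeper band 2.97% of 8374. The shares at least 2-fold lower were 7.27% and 2.85%. By this difference ENPP6 ranked 3 of 5996 and 12 of 8374, ABCA9 4 and 20, RASGRP3 9 and 21, and KLK6 34 and 150, while EGFLAM ranked 2 of 8374 in the deeper band. KLK6 was thus the least restricted of the 5.

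Other genes stood as high in this contrast in both bands and were named after their values were seen. CPED1 was higher by 4.01 in log2 units in the upper and 5.34 in the deeper band, SHROOM2 by 3.31 and 3.01, and PLEKHA7, an adherens junction protein gene, by 3.25 and 3.12. AFF3, a nuclear factor gene, was higher by 2.50 and 2.89, and TBC1D4, a regulator of glucose transporter traffic, by 2.18 and 2.86. In the deeper band IL16 (5.26), HEG1 (4.52), BMP6 (4.22), ELOVL7 (4.11), a fatty acid elongase, and CDK14 (3.25) also stood high. IL16 had 69 UMIs in the ENPP6-led and 7 in the other clusters, HEG1 65 and 11, and BMP6 67 and 14. These 3 genes thus reached the minimum of 50 UMIs through the ENPP6-led nuclei, of which the upper band had only 73. A band difference in these genes was not tested.

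**Figure D3:**
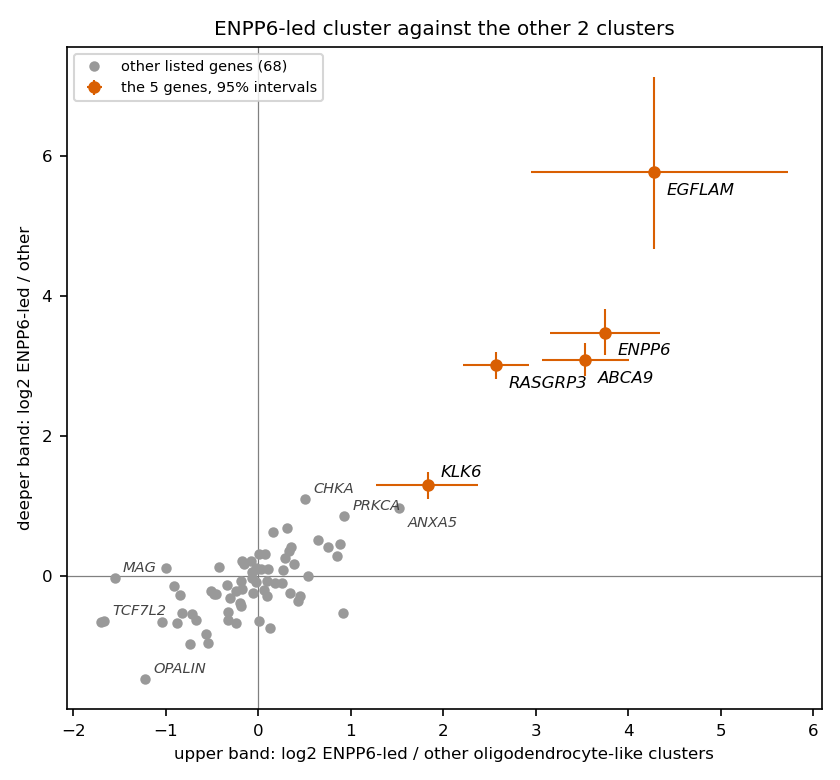
Log2 ratio of CPM in the ENPP6-led cluster over the other oligodendrocyte-like clusters, in the upper band (x axis) and deeper band (y axis), for the 5 genes with 95% intervals (orange) and 68 other listed genes (grey). ENPP6, ABCA9, RASGRP3 and EGFLAM lie apart at 2.57 or more on both axes, KLK6 lies lower, and OPALIN is low on both.

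The number of the 5 genes seen in each nucleus was counted next. Each nucleus was thinned to 1500 UMIs to remove depth, which left 70 upper-band and 418 deeper-band nuclei of the ENPP6-led cluster and dropped 3 and 32. At least 2 of the 5 genes had a UMI in 45.7% (33.7% to 58.1%) of the upper-band and 63.4% (58.6% to 68.0%) of the deeper-band nuclei. In the MOBP-led cluster this share was 2.81% and 6.98%, and in the TF-led cluster 0.758% and 4.86%. The 5 genes helped to form these clusters, and the ENPP6-led cluster was picked by its ENPP6 level. Gaps between the clusters in these counts are therefore in part built in and are given as a description. Thinning dropped 72 upper-band and 378 deeper-band nuclei of the TF-led cluster, so its shares describe only its nuclei with more UMIs. None of the 5 was seen in 15.7% and 7.18% of ENPP6-led nuclei, against 75.5% and 66.1% in the MOBP-led cluster, and 2 nuclei, both of the deeper band, had all 5. In excitatory neurons 99.2% and 98.8% of nuclei had none.

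**Figure D4:**
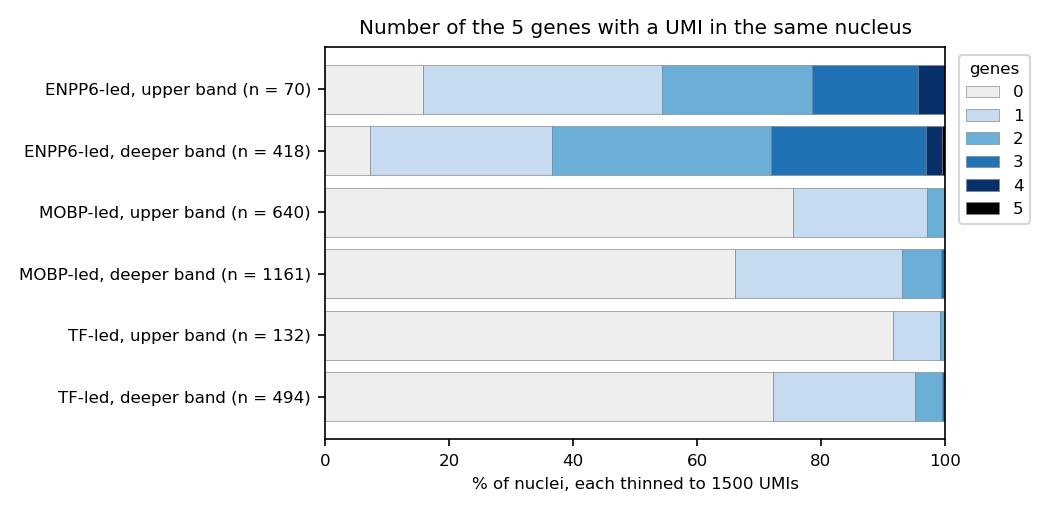
Stacked bars of the share of nuclei (x axis, percent) with 0 to 5 of the genes detected at 1500 UMIs a nucleus, for the 3 oligodendrocyte-like clusters in each band. In the ENPP6-led cluster 45.7% of upper-band and 63.4% of deeper-band nuclei have at least 2 of the genes, and the other clusters at most 6.98%. The genes helped to form the clusters, so this gap is in part built in.

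Singly, ABCA9 was seen in 48.6% of upper-band and 51.9% of deeper-band thinned nuclei of the ENPP6-led cluster, RASGRP3 in 47.1% and 50%, ENPP6 in 27.1% and 33.7%, and EGFLAM in 8.57% and 12.7%. KLK6 was seen in 24.3% (14.8% to 36.0%) and 39.5% (34.8% to 44.3%). Without thinning the KLK6 shares were 39.7% of 73 and 49.3% of 450 nuclei. In the MOBP-led cluster KLK6 was seen in 7.50% and 17.9% of thinned nuclei and in the TF-led cluster in 3.79% and 16.8%. A KLK6 UMI was thus seen in a larger share of thinned nuclei in the deeper band in all 3 clusters.

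In deeper-band nuclei of the ENPP6-led cluster the genes were seen together about as often as their separate shares give. In the deeper band, ABCA9 and RASGRP3 shared 100 nuclei, where the product of their shares gives 108.5, and RASGRP3 and KLK6 shared 83, where it gives 82.5. For all 10 pairs the observed count in the deeper band was 0.909 to 1.05 times the product. The 70 upper-band nuclei gave sparse counts, from 0.614 (ENPP6 and EGFLAM, 1 nucleus) to 2.06 times (EGFLAM and KLK6, 3 nuclei). With the clusters pooled, a gene was seen more often in nuclei that held more of the others. The pool includes the ENPP6-led cluster, which was formed and picked with these genes, so this rise is in part built in. Among all deeper-band oligodendrocyte-like nuclei, ENPP6-led ones included, ABCA9 was seen in 8.62% of those with none of the other 4 genes, in 23.4% of those with 1 and in 39.0% of those with at least 2. The corresponding shares of KLK6 were 17.1%, 28.5% and 38.1%. Without the ENPP6-led cluster the deeper-band shares of ABCA9, KLK6 and RASGRP3 rose with 1 other gene but not clearly further. ABCA9 was seen in 5.70%, 10.97% and 9.84% of such nuclei, and only 61 nuclei had at least 2 of the other genes. KLK6 was seen in 16.1%, 24.5% and 18.9%, and RASGRP3 in 8.98%, 14.7% and 15.7%.

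At a finer clustering (Leiden resolution 2) the oligodendrocyte-like nuclei fell into 6 clusters. A cluster led by ABCA9, RASGRP3 and ENPP6 held 70 upper-band and 434 deeper-band nuclei. Another, led by SLC5A11, MOBP and RNF220, held 131 and 360 nuclei and carried the genes at intermediate levels, with ENPP6 at 64.7 and 83.7 CPM, ABCA9 at 152 and 133 CPM and RASGRP3 at 194 and 142 CPM. The OPALIN, CASR and UGT8-led cluster (410 and 761 nuclei) had ENPP6 at 4.24 and 7.68 CPM. KLK6 did not follow that order: a cluster led by CRYAB, TF and APOD, with 0 upper-band and 279 deeper-band nuclei, had KLK6 at 233 CPM and ENPP6 at 32.7 CPM. In each of the 5 clusters with nuclei of both bands KLK6 was higher in the deeper band.

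**Figure D5:**
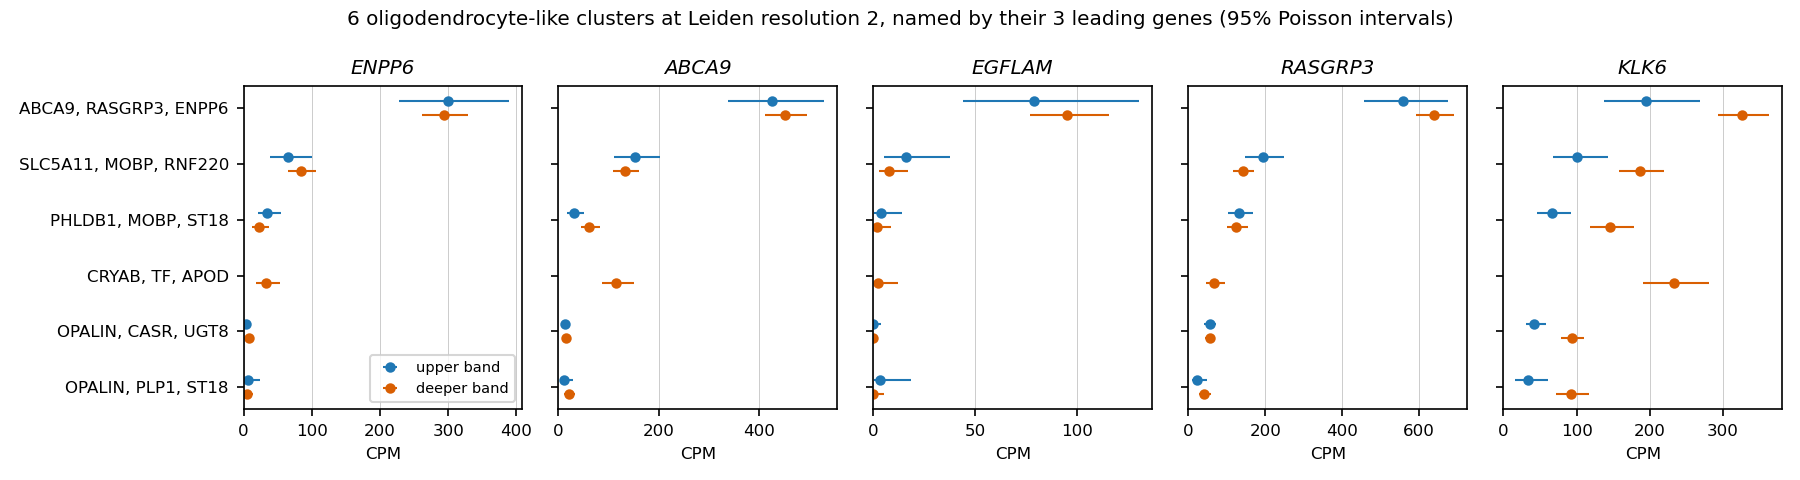
CPM of each gene (x axis, linear, its own scale) in 6 oligodendrocyte-like clusters at the finer resolution, in the upper band (blue) and deeper band (orange), with 95% Poisson intervals. Levels step down from the ABCA9, RASGRP3 and ENPP6-led cluster to the SLC5A11-led cluster (ENPP6 64.7 and 83.7 CPM) and then to the others, while KLK6 also reaches 233 CPM in the CRYAB-led cluster, which has deeper-band nuclei only.

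Because the genes were among those used for clustering, the nuclei were also clustered without them. A cluster led by ABCA9, RASGRP3 and ANLN was found again, with 63 upper-band and 423 deeper-band nuclei. In it ENPP6 had 296 and 271 CPM, ABCA9 429 and 434 CPM, RASGRP3 557 and 633 CPM, EGFLAM 81.2 and 91.1 CPM and KLK6 186 and 318 CPM. This cluster was formed without the 5 genes but was picked out as the oligodendrocyte-like cluster with the highest ENPP6 level. The high level of ENPP6 in it is thus in part built in.

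The genes' families and pathways were then read in the same clusters, from lists with the 5 genes left out. ENPP2, the autotaxin gene and the most abundant ENPP family member here, had 1915 and 1930.0 CPM in the ENPP6-led cluster, and its log2 ratio to the other clusters was 0.10 in the upper and -0.06 in the deeper band. ENPP4 had 11.1 CPM in the upper and 21.6 CPM in the deeper band over the 3 clusters (log2 ratio 0.96, 0.33 to 1.65), and 19.6 against 22.1 CPM in the ENPP6-led against the other deeper-band nuclei. Of 10 genes of choline phospholipid handling with enough UMIs in the deeper band, 1 was at least 2-fold higher in the ENPP6-led cluster and none lower. That was CHKA, a choline kinase, at 68.1 against 31.7 CPM (log2 ratio 1.10, 0.67 to 1.53), with 0.51 (-0.55 to 1.43) in the upper band. The list's median was 0.11 in either band, beside -0.02 and -0.01 over all genes.

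No other ABCA transporter with enough UMIs was 2-fold higher in the ENPP6-led cluster. ABCA8, its nearest relative with enough UMIs, had 246 CPM in the ENPP6-led cluster and 309 CPM in the others in the upper band, and 228 and 325 CPM in the deeper band (log2 ratios -0.33 and -0.51). ABCA2, an oligodendrocyte lipid transporter, had log2 ratios of 0.10 and -0.28, ABCA3 -0.18 and 0.22, and ABCA5 0.91 (-0.02 to 1.75) and -0.53. ABCA12 had -0.23 in the deeper band. These were 4 such genes in the upper and 5 in the deeper band, with medians of -0.04 and -0.28. ABCA6 had 1 and 3 UMIs over the 3 clusters.

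Among 15 genes of the dystroglycan complex and its ligands in the deeper band, 1 was at least 2-fold higher in the ENPP6-led cluster, and the median was -0.28. SGCD, a sarcoglycan, had 22.4 against 7.20 CPM (log2 ratio 1.64, 0.80 to 2.46). DAG1, which encodes dystroglycan, had 14.9 against 23.8 CPM (-0.67, -1.53 to 0.10), and UTRN, the utrophin gene, 216 against 381 CPM (-0.81, -1.02 to -0.62). The ligand EGFLAM was thus high in nuclei where its receptor gene DAG1 was not.

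Of 12 RAS and RAP signalling genes in the deeper band, none passed 2-fold, and the median was 0.12. PRKCA, a diacylglycerol-responsive kinase gene, was close, at 6031 CPM in the ENPP6-led cluster and 3174 CPM in the others in the upper band (log2 ratio 0.93, 0.84 to 1.02). In the deeper band it had 6036 and 3334 CPM (0.86, 0.81 to 0.90). PRKCE, another such kinase gene, was lower, at -0.54 and -0.94. RASGRP2 had 1 and 11 UMIs over the 3 clusters and RASGRP4 none.

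KLK8 was the only other kallikrein with at least 50 UMIs in the 3 clusters. It had 5 UMIs (25.1 CPM) in the upper and 31 UMIs (28.9 CPM) in the deeper band of the ENPP6-led cluster, against 3.47 and 4.65 CPM in the MOBP-led and 6.09 and 2.19 CPM in the TF-led cluster. In the deeper band 31 of its 47 oligodendrocyte-like UMIs came from the ENPP6-led cluster. In excitatory neurons KLK8, the neuropsin gene, had 330 UMIs (8.85 CPM) in the upper and 104 UMIs (2.72 CPM) in the deeper band, the reverse of KLK6. The part of the differing mix of excitatory clusters in these values was not tested.

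Newly formed oligodendrocyte genes, the stage ENPP6 marks in rodents, had list medians near that of all genes in the ENPP6-led cluster, at 0.04 in the upper and -0.13 in the deeper band. GPR17 had 0 and 1 UMIs in it. BCAS1 had 1257 CPM in the ENPP6-led cluster and 1053 CPM in the others in the upper band, and 935 and 997 CPM in the deeper band. TCF7L2 was lower, by log2 ratios of -1.67 (-2.89 to -0.67) and -0.64 (-0.99 to -0.29). NKX2-2 was the only 1 of 6 at least 2-fold higher in the deeper band, at 28.9 against 13.7 CPM (1.08, 0.40 to 1.73), and PRICKLE1 was higher by 0.31 and 0.69.

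Of 14 myelin genes, none was at least 2-fold higher in either band. OPALIN was lower in both, at 271 against 634 CPM in the upper band (log2 ratio -1.22, -1.64 to -0.83) and 237 against 653 CPM in the deeper band (-1.46, -1.66 to -1.28). MAG was lower in the upper band only, from 5 UMIs (-1.55, against -0.02 in the deeper band), and the difference between bands was not tested. MAL, a myelin proteolipid gene, was higher by 0.88 and 0.47, and MYRF, the myelin gene regulator, lower at -1.04 and -0.65. Of 8 late-stage oligodendrocyte genes with enough UMIs, KLK6 left out, only 2 lay above 0 in each band. The list medians were -0.13 in the upper and -0.30 in the deeper band. ANXA5 was higher, by 1.52 (0.59 to 2.37) and 0.98 (0.53 to 1.42), and CA2, carbonic anhydrase, lower, at -0.74 and -0.97. Of 12 cholesterol synthesis genes in the deeper band only MVD passed 2-fold, lower from 5 UMIs (-1.24, -2.93 to 0.08).

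Markers of other cell types were low in the ENPP6-led nuclei. Excitatory neuron markers summed to 251 CPM in the upper and 178 CPM in the deeper band, inhibitory neuron markers to 322 and 227 CPM, astrocyte markers to 226 and 179 CPM, precursor markers to 141 and 138 CPM, and microglia markers to 85.4 and 84.8 CPM. Vascular markers summed to 60.3 and 46.6 CPM, with 9 of 12 at 0 in the upper and 6 of 12 in the deeper band, and CSF1R and CX3CR1, microglial receptors, were at 0 in both. The excitatory and inhibitory sums reached 258 and 320.0 CPM in the MOBP-led cluster and 368 and 496 CPM in the TF-led cluster, which are the upper-band sums of excitatory and inhibitory markers. In both bands the TF-led cluster had higher sums than the ENPP6-led cluster.

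CRYAB, a small heat shock protein gene, marks another deeper-band oligodendrocyte group. In the ENPP6-led cluster it had 95.5 CPM in the upper and 265 CPM in the deeper band, and over the 3 clusters 68.6 and 264 CPM (log2 ratio 1.95, 1.71 to 2.20). Its deeper-band level was 220.2 CPM (203 to 238) in the MOBP-led and 354 CPM (324 to 387) in the TF-led cluster, so the ENPP6-led cluster lay between them, while KLK6 was highest in the ENPP6-led cluster. APOD, a lipid carrier gene, was at 685 and 1339 CPM over the 3 clusters (0.97, 0.89 to 1.05).

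The genes whose levels followed each member most closely were found by Pearson correlation of log2(CPM + 10) over 45 cluster-by-library sums, among 13566 genes. The points share 2 libraries, so the correlations are descriptions. RASGRP3 and ENPP6 were each other's closest gene (r = 0.963), followed by CA13, a carbonic anhydrase (0.874 for ENPP6 and 0.931 for RASGRP3), and by EXOC5 for ENPP6 (0.865) and PRR5L for RASGRP3 (0.917). ABCA9 was closest to NKD1, an inhibitor of Wnt signalling (0.923), MYH11 (0.916) and NDE1 (0.903). MYH11 and NDE1 overlap in other mammals, and reads of overlapping genes may not have been separated.

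KLK6 was closest to PLPP2, a lipid phosphatase gene (0.947), PAQR4 (0.939) and TF (0.938), and the nearest of the other members, ABCA9, ranked 196. PAQR4 was higher in the deeper band in all 3 clusters, as KLK6 was, at 20.8 and 61.3 CPM in sum (log2 ratio 1.56). EGFLAM had under 200 UMIs and was not ranked. Not every neighbour was a gene of the ENPP6-led cluster: EXOC5 had 131 and 124 CPM there against 105 and 102 CPM in the MOBP-led cluster, and MYH11 was highest in upper-band vascular-like nuclei (75.6 CPM).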

How the data were processed

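The files hold counts of unique molecular identifiers (UMIs) for each gene and nucleus of 2 libraries, 1 for each cortical band of ferrets labelled DCX knockout. The authors deposited them as unnormalized whole-number counts, per the file headers and the values. Cell Ranger 6.2.1 and 2.1.1 are named in the submitters' processing notes and the matrix header gives version 3.1.0, and the genome build and the treatment of intronic reads are not given in the sources used here. Symbols come from the deposited feature tables.

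The 5 genes, the lists and the tests were chosen with earlier results of these data known, and the rule that a cluster counts as oligodendrocyte-like only with an oligodendrocyte marker among its 10 leading genes was set with the clusters already seen. The deposited barcodes numbered 7151 (66253015 UMIs) in the upper band and 9694 (78352064 UMIs) in the deeper band. Nuclei with at least 500 genes were kept, and Scrublet (scanpy 1.11.5, automatic threshold) marked 830 (11.7%) and 1458 (15.2%) as doublets, which were removed. Both libraries were clustered together on 2000 variable genes, 30 components and 15 neighbours (Leiden, resolution 1, igraph 0.11.9), with no integration and no correction for free RNA. Clusters were named by how many markers of a class were raised (at least 1/3 of the marker's highest CPM over clusters and a UMI in at least 10% of nuclei), with the 5 genes left out of the markers. Of 27 clusters, 25 were named, and a cluster with oligodendrocyte markers led by immune genes (157 and 136 nuclei) was kept apart from the oligodendrocyte-like ones.

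CPM are UMIs summed over the nuclei of a cluster and band, per 1000000 of all their UMIs. Nuclei are not replicates, so there are no p-values. Intervals are exact Poisson for sums and Clopper-Pearson for shares, all at 95%. Ratios of CPM have exact conditional binomial intervals and ratios of shares log-scale intervals. Only the intervals for ratios of CPM were tested on simulated data. A floor is 3 UMIs. Called means at least 2-fold. Named beside the 5 genes were their measured relatives, up to 4 other genes of each list with the highest and lowest ratios, the 3 genes closest to each in correlation and the markers used, with exceptions said to be chosen after their values were seen. Doublet removal, the minimum number of genes, depth, the scaling and the clustering were varied, as given in the closing section. Some genes of the lists are not reported here. No sequence is printed.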

Additional observations from a re-analysis of the deposited data

How the results depend on the processing

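For 16 results, 128 values were recomputed under other settings, and none of them changed direction. Of these, 113 moved by less than their interval. In the oligodendrocyte-like clusters the log2 CPM ratio (deeper over upper) ranged from 0.82 to 0.99 for ENPP6, 0.91 to 1.05 for ABCA9, 0.84 to 1.50 for EGFLAM, 0.55 to 0.70 for RASGRP3 and 1.34 to 1.64 for KLK6. The cause of the moves below was not tested. With each nucleus thinned to 1500 UMIs, KLK6 in these clusters came to 1.64. Over all nuclei, thinning gave ENPP6 1.24, EGFLAM 1.88, RASGRP3 1.10 and KLK6 2.39. Thinning also moved the log2 ratio of the share of oligodendrocyte-like nuclei with a UMI, to 0.94 for ABCA9, 1.55 for EGFLAM, 0.48 for RASGRP3 and 1.42 for KLK6, from 0.60, 0.73, 0.15 and 0.92. The ENPP6-led share ratio, 2.24 in the report, was 1.81 after thinning (180 and 794 nuclei) and 1.58 with a minimum of 1000 genes (202 and 758 nuclei), where the cluster was larger. Without doublet removal ABCA9 over all nuclei was 0.91, and with 2 times as many nuclei removed KLK6 was 1.82. The mean of each nucleus's own CPM gave ENPP6 1.03 and RASGRP3 0.91 over all nuclei.

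The clusters of thinned nuclei were named from unthinned counts, a choice made after seeing the data. Named from the thinned counts, a single oligodendrocyte cluster (660 and 1282 nuclei) was left and the ENPP6-led cluster was not separate. In the other settings the ENPP6-led cluster held 63 to 79 upper-band and 376 to 487 deeper-band nuclei. Within the ENPP6-led cluster, the band ratios of ENPP6, ABCA9 and RASGRP3 had intervals above 0 with a minimum of 1000 genes, and that of RASGRP3 also with 2 times as many nuclei removed as doublets (0.31, 0.01 to 0.62) and that of ABCA9 barely after thinning (0.37, 0.00 to 0.75); these ratios were compared across clusterings after seeing the data. Depth limits EGFLAM most, with 23 UMIs in upper-band oligodendrocyte-like nuclei. Each band has 1 library, so none was left out. No paired analysis was possible because no test was made on single libraries.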

Other observations

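ENPP6 was also present in a few precursor-like nuclei. In the deeper band 3 of 193 such nuclei held all 11 ENPP6 UMIs of that class, and in the upper band 1 of 125 held 1. The 3 deeper-band nuclei carried 141 UMIs of BCAS1, 32 of TNS3, 12 of PRICKLE1 and 11 of TCF7L2, against 1062, 218, 238 and 107 UMIs in the 190 precursor-like nuclei without an ENPP6 UMI. Other newly formed oligodendrocyte genes did not all go this way. ITPR2 was lower, with 12 UMIs (1065 CPM) against 747 (1610 CPM), and BMP4 and NKX2-2 had 0 against 6 and 7 UMIs. NEU4 had 4 against 106 UMIs (355 and 228 CPM). GPR17 had 0 UMIs in the 3 nuclei and 1 in the 190. The 3 nuclei held 11272 UMIs of all genes and the 190 held 464074, and they were picked out after their values were seen.

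The kallikrein genes KLK6 and KLK8 differed in opposite directions in excitatory neurons. KLK6 had 0.911 CPM in the upper and 3.22 CPM in the deeper band, and KLK8 8.85 and 2.72 CPM. These are sums over excitatory clusters whose mix differed between the bands, and the part of that mix was not tested.

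CA13, the carbonic anhydrase gene whose levels followed RASGRP3, had 25.1 CPM from 5 UMIs in the upper and 66.2 CPM from 71 UMIs in the deeper band of the ENPP6-led cluster (log2 ratio 1.40, 0.11 to 3.06). NKD1 had 342 and 246 CPM there (-0.47).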
